A study of Sus scrofa with 12 samples.

Results

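Cathepsins are the proteases of the lysosome, the acidic compartment in which cells break down proteins. The set described here was defined by 7 gene symbols: CTSB, CTSC, CTSD, CTSH, CTSK, CTSL and CTSZ. All probe sets whose single symbol in the array annotation was one of these were taken, which gave 9 of the 24123 probe sets on the array, for 6 of the 7 genes and of the 6765 genes named by a single symbol. CTSC was read by 4 probe sets and CTSB, CTSD, CTSH, CTSK and CTSZ by 1 each. No probe set used here carried the symbol CTSL. A probe set named CTSV belongs to a gene whose RefSeq entry lists CTSL among its other symbols, while RefSeq also holds a separate CTSL gene. It was therefore not counted as a member and is described after them.

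Expression was measured in ovary tissue of 12 sows of an Iberian x Meishan F2 cross slaughtered after 30 days of pregnancy. A HIGH prolificacy group held the 6 sows with higher EBV, the estimated breeding value, and a LOW prolificacy group the 6 with lower EBV; they are called high and low here. No treatment and no age is among the labels used here, and pregnancy and breed were common to both groups. Each sow has 1 Affymetrix array, and the right and left ovary were averaged. Values are log2 expression values, so a difference of 1 is a doubling. A group mean is given with its SD over 6 sows.

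Most cathepsins are cysteine proteases of the papain family, made as inactive precursors, carried to the lysosome by sorting receptors and held in check outside it by cystatins. CTSB and CTSL cut within proteins, CTSC and CTSH remove residues from the amino end and CTSZ from the carboxyl end, and CTSK is known for cutting collagen. CTSD differs in kind, being an aspartic protease. In the ovary these enzymes are known from protein turnover in steroid-making cells, from macrophages and from the remodelling of follicles and the corpus luteum, the body that secretes progesterone in pregnancy.

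Array medians lay between 4.81 and 4.97, and rank correlations between arrays ran from 0.974 to 0.993. All 8 luteal markers were measured. Their mean level lay between 13.06 and 13.82 across high sows and between 13.37 and 13.66 across low sows. Of 9 granulosa and follicle markers on the array 5 were measured, while INHBB, AMH, FOXL2 and FSHR were not. Of 12 macrophage markers on the array 9 were measured, with mean levels of 7.02 to 8.11 (high) and 6.72 to 7.87 (low), while MARCO, ITGAM and CD86 lay near the floor of the scale. None of the 6 T and NK cell markers on the array was measured. Albumin, a liver product, stood above 4 in high 5 and in low 1, low 3 and low 4, with values from 8.67 to 12.61, and at or below 3.33 in the other sows. The 3' minus 5' difference of the actin control, a sign of RNA integrity, was 2.59 ± 0.45 in the high and 2.12 ± 0.13 in the low sows.

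All 6 cathepsin genes were clearly expressed in every ovary. All 9 probe sets lay above 4, the level used for a measured probe set, in all 12 sows. In mean level CTSB exceeded 99.1% of the 13390 probe sets tested and CTSC 98.6%, followed by CTSH at 96.4%, CTSD at 90.9%, CTSK at 90.0% and CTSZ at 43.3%. These ranks place each probe set on the array's scale and do not compare amounts of the proteases, since probe sets differ in how well they bind.

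**Figure D1:**
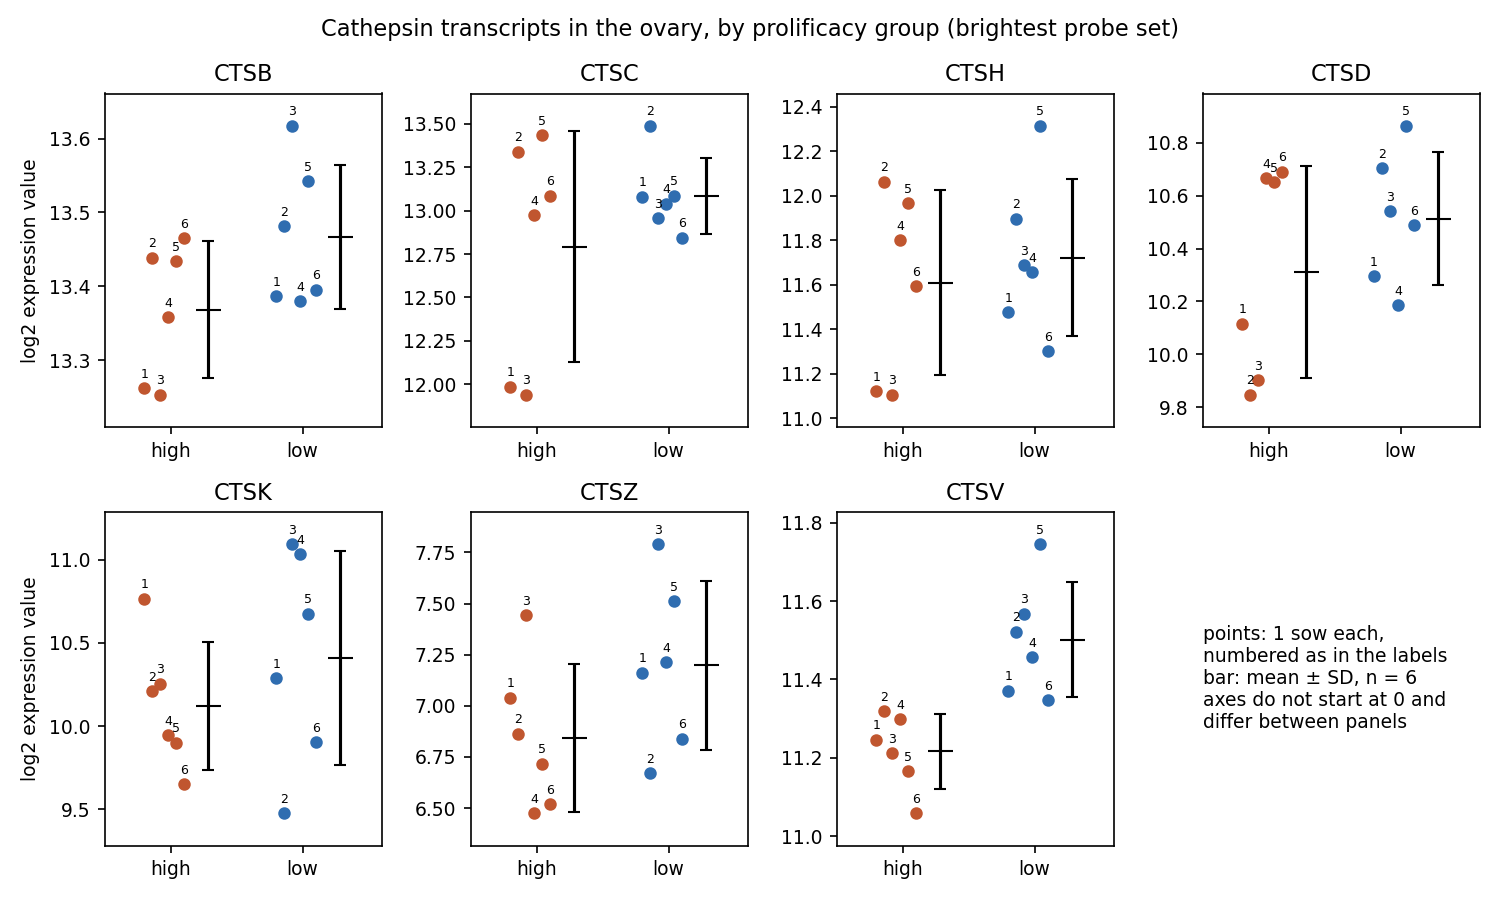
Log2 expression value (vertical axis) of the brightest probe set of each cathepsin gene in the 6 high and 6 low prolificacy sows, with each sow's number and the mean ± SD; axes do not start at 0. CTSB spans 0.36 in all, in CTSC the sows high 1 and high 3 lie apart below the rest, and in CTSV the highest high sow, at 11.32, lies below the lowest low sow, at 11.35.

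No cathepsin probe set passed the test between high and low prolificacy. With limma and Benjamini-Hochberg adjustment over all 13390 probe sets, 0 of the 9 member probe sets had an adjusted p under 0.05, as did 0 of all probe sets (0%). At an unadjusted p under 0.05 there was also none among the 9, where the share over all probe sets was 5.64%. The mean was lower in the high group for all 9, and for 6 of 6 genes by their brightest probe set, while 52.4% of all probe sets were lower. The 4 probe sets of CTSC share a gene and are not separate evidence. The median difference, high minus low, was -0.25 over the 6 genes and -0.010 over all probe sets. The member adjusted p values ran from 0.899 to 0.984. The number of sows limits these differences, and over all 13390 probe sets the median 95% interval reached 0.35 to either side. Every member probe set except that of CTSB had a wider interval.

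**Figure D2:**
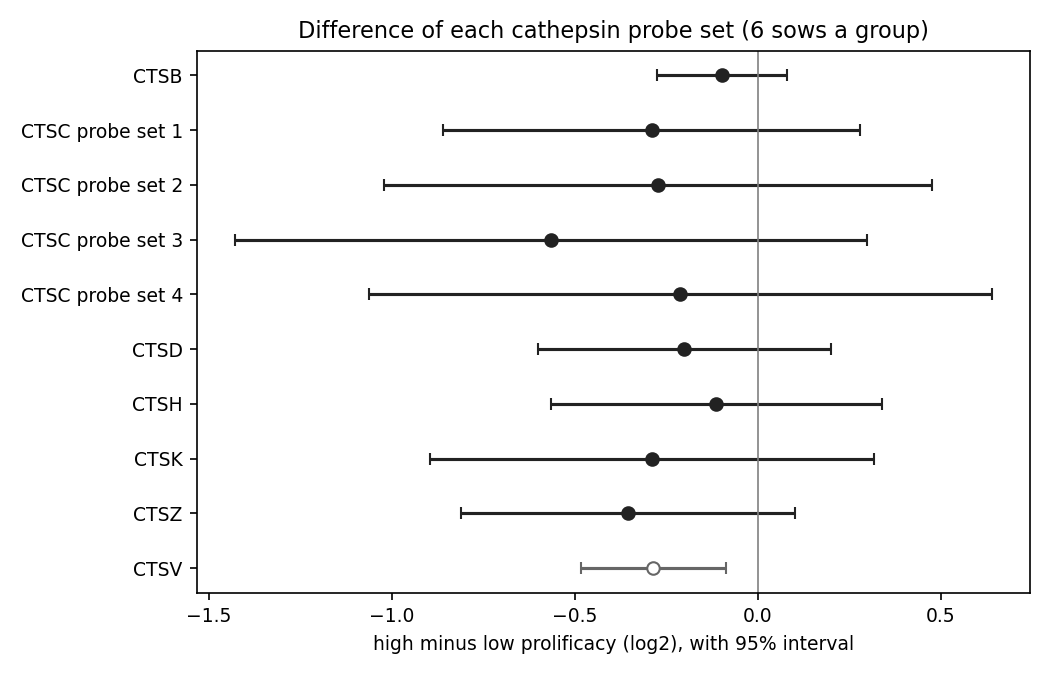
Difference in mean log2 expression, high minus low prolificacy (horizontal axis), with its 95% interval from limma, for the 9 cathepsin probe sets (filled) and CTSV (open), 6 sows a group. Each of the 9 member intervals includes 0, and the intervals of the 3 dimmer CTSC probe sets are the widest, that of the third reaching from -1.43 to 0.30.

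Among the endopeptidases, CTSB varied least from sow to sow. Its lowest, median and highest values were 13.25, 13.40 and 13.46 in the high sows and 13.38, 13.44 and 13.62 in the low sows. The groups overlapped, with 3 high sows below every low sow and the other 3 inside the low range. The means were 13.37 ± 0.093 and 13.47 ± 0.098, a difference of -0.099 (95% interval -0.28 to 0.079, limma adjusted p = 0.929). The range over all 12 sows was 0.36, and that of every other member probe set was 1.02 or more.

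CTSD, the aspartic protease, split the high sows. Its values in that group were 9.85, 10.38 and 10.69 as lowest, median and highest, and 10.19, 10.51 and 10.86 in the low sows. High 1, high 2 and high 3 lay below every low sow, while high 4, high 5 and high 6 stood close together between 10.65 and 10.69. The means were 10.31 ± 0.40 and 10.51 ± 0.25, a difference of -0.20 (interval -0.60 to 0.20, limma adjusted p = 0.934). Without high 2 and high 3, the 2 arrays that an earlier look at these data found least like the others, the difference was 0.018.

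CTSC, which activates the serine proteases of immune cells, varied more among the high than among the low sows. The range over 12 sows was 1.55 in its brightest probe set, against 1.62 in CTSK, and 2.42 to 2.93 in the 3 dimmer ones. In its brightest probe set the high sows ran from 11.94 through a median of 13.03 to 13.43, and the low sows from 12.85 through 13.06 to 13.49. High 1 and high 3, at 11.99 and 11.94, lay below every other sow, and the other 4 high sows lay within the low range. The means were 12.79 ± 0.66 and 13.08 ± 0.22, a difference of -0.29 (interval -0.86 to 0.28, limma adjusted p = 0.931). It was -0.13 without high 1, -0.12 without high 3, -0.42 without high 5 and -0.11 with array weights.

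The other 3 CTSC probe sets showed the same wide high group. Their SDs were 0.90, 1.05 and 1.03 in the high sows and 0.24, 0.24 and 0.26 in the low sows. The ratio of the SDs was 3.04 in the brightest probe set and 3.84, 4.39 and 3.98 in the others, and an SD ratio above 2 was seen in 24.3% of all probe sets tested. No test of the spread was made. In the third and the fourth probe set no high sow lay within the low range, as 4 lay below it and high 2 and high 5 above it. The differences of these 3 were -0.27, -0.56 and -0.21, with limma adjusted p values of 0.961, 0.920 and 0.984.

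Over the 12 sows Pearson's r between the CTSC probe sets ran from 0.79 to 0.97 and Spearman's rho from 0.70 to 0.98, given as a description since they read the same gene on the same arrays. The 3 dimmer ones followed each other most closely, at an r of 0.92 or more. Within the low sows, whose range was narrow, the brightest had an r of 0.49, 0.81 and 0.45 with the others, from bright to dim. With the actin 3' minus 5' difference as a covariate, the 4 differences were -0.76, -0.93, -1.27 and -1.04, with limma adjusted p values from 0.203 to 0.232. In mean, high sows had the larger actin difference (2.59 against 2.12). Over the 12 sows the brightest CTSC probe set had an r of 0.32 with it (permutation adjusted p = 0.503). Within groups that r was 0.73 in the high and 0.027 in the low sows. Whether RNA integrity caused any of the CTSC difference was not tested. Without high 3 the second and the fourth probe set differed by 0.0071 and 0.046, and without both high 2 and high 3 by -0.18 and -0.30. With the albumin value as a covariate the fourth differed by 0.00024.

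**Figure D3:**
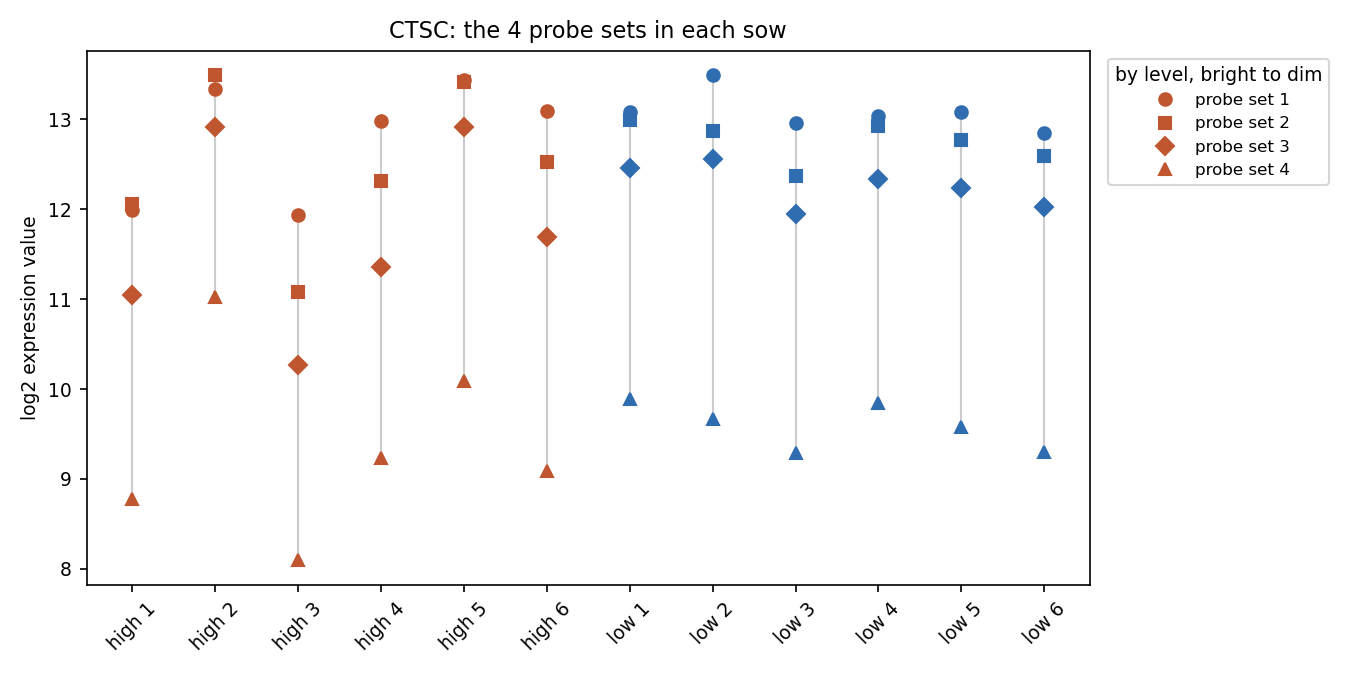
Log2 expression value (vertical axis) of the 4 CTSC probe sets in each of the 12 sows, numbered from the brightest to the dimmest by mean level. In all 4, high 2 and high 5 stand above high 1 and high 3, and the 6 low sows stay close together.

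CTSH, an aminopeptidase, followed CTSC in the high sows. Its lowest, median and highest values were 11.10, 11.70 and 12.06 in the high and 11.30, 11.67 and 12.31 in the low sows. High 1 and high 3 were again lowest, and the other 4 high sows lay within the low range. The means were 11.61 ± 0.42 and 11.72 ± 0.35, a difference of -0.11 (interval -0.57 to 0.34, limma adjusted p = 0.984). Without low 5, which held the highest CTSH, it was 0.0052. With the actin difference as a covariate it was -0.50, and -0.30 when the 4 sows with high albumin were left out.

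CTSK, the collagen-cutting cathepsin, varied most in the low group. The high sows ran from 9.65 through 10.08 to 10.77 and the low sows from 9.48 through 10.48 to 11.09. All 6 high sows lay within the low range, with low 3 and low 4 above every high sow. The means were 10.12 ± 0.39 and 10.41 ± 0.64, a difference of -0.29 (interval -0.90 to 0.32, limma adjusted p = 0.938). Low 3 and low 4 also had high albumin, and the difference was 0.15 once all 4 such sows were left out; the part of albumin in the result was not tested further.

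CTSZ, the carboxypeptidase also known as cathepsin X, had the largest difference among the brightest probe sets. It was also the dimmest member, with 6.47, 6.79 and 7.44 in the high and 6.67, 7.19 and 7.79 in the low sows. High 4 and high 6 lay below every low sow, and the others overlapped. The means were 6.84 ± 0.36 and 7.20 ± 0.41, a difference of -0.36 or 1.28-fold (interval -0.81 to 0.10, limma adjusted p = 0.899). The difference was -0.13 with the actin difference as a covariate, -0.14 once the 4 sows with high albumin were left out and -0.55 with array weights.

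CTSV, named for cathepsin V, a close relative of cathepsin L, kept the groups apart. Its lowest, median and highest values were 11.06, 11.23 and 11.32 in the high and 11.35, 11.49 and 11.75 in the low sows. All 6 high sows lay below every low sow, by a gap narrower than the spread within either group. Groups did not overlap in 0.471% of the probe sets tested, and in 0.336% with the high group below. The means were 11.22 ± 0.096 and 11.50 ± 0.15, a difference of -0.29 or 1.22-fold (interval -0.48 to -0.087). It did not pass, with an unadjusted p of 0.00836 and an adjusted p of 0.752 in limma. Its difference ran from -0.35 to -0.24 over all settings and omissions of a sow, and its adjusted p was 0.203 or more in each. Since it was singled out among the lysosomal peptidases after its values were seen, the gap is a description.

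CTSS, a cathepsin of antigen-presenting cells, was read by 3 probe sets. From the brightest to the dimmest they differed by -0.013, -0.31 and 0.10, and none passed in limma (adjusted p = 0.953 or more). The CTSS gene is the next one to CTSK in RefSeq's Sscrofa11.1 assembly. Across the 12 sows CTSK and CTSS had a Pearson r of 0.60 (permutation p = 0.0409, adjusted over 13 pairs with CTSV or CTSS 0.241) and a Spearman rho of 0.57 (permutation p = 0.0594, adjusted p = 0.324). Without the 2 sows farthest from the CTSS median r was 0.56. Within groups it was 0.33 in the high and 0.92 in the low sows. CTSS and CTSZ had an r of 0.53 (permutation adjusted p = 0.245), with 0.26 in the high and 0.97 in the low sows. Neither pair passed.

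The members were next compared with each other across the sows. Of the 15 pairs of the 6 genes, by their brightest probe sets, 9 had an r above 0, and r ran from -0.35 to 0.81. CTSC with CTSH and CTSK with CTSZ passed after Benjamini-Hochberg adjustment over the 15 pairs. This count rested on single sows, as it ran from 1 to 7 when a sow was left out. Without high 2, CTSB with CTSC, CTSD and CTSH, CTSC with CTSD and CTSD with CTSH passed too (permutation adjusted p from 0.0186 to 0.0431). Without low 3, CTSB with CTSC and with CTSH passed too (permutation adjusted p = 0.0127 for both). With quantile normalization CTSB with CTSC, CTSD and CTSH passed too (permutation adjusted p = 0.0299, 0.0439 and 0.0299). All points share arrays and normalization, and in whole tissue fewer cells of a type and less RNA per cell cannot be told apart.

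CTSK and CTSZ varied together from sow to sow. Their Pearson r was 0.81 (permutation p = 0.00192, adjusted p = 0.0144) and their Spearman rho 0.83 (permutation p = 0.00132, adjusted p = 0.0198). Within groups r was 0.65 in the high and 0.88 in the low sows, and it was 0.75 without low 3 and low 4, the sows farthest from the CTSK median. Of the 5078 other genes measured, CTSZ was the 10th most like CTSK and CTSK the 10th most like CTSZ, so 0.197% of genes were as close. Without the 4 sows with high albumin r was 0.73, and no pair passed in the 8 sows left (smallest exact permutation adjusted p = 0.0583). Over the 12 sows CTSZ had an r of -0.57 with the actin 3' minus 5' difference (permutation adjusted p = 0.433). For CTSK that r was -0.28 (permutation adjusted p = 0.503). Within the high sows it was -0.64 for CTSZ and -0.24 for CTSK, and within the low sows -0.022 and -0.095. The part of RNA integrity in the relation of CTSK and CTSZ was not tested.

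CTSC and CTSH were also tied, but through fewer sows. Their Pearson r was 0.79 (permutation p = 0.00125, adjusted p = 0.0144) and their Spearman rho 0.76 (permutation p = 0.00626, adjusted p = 0.0469). Within groups r was 0.96 in the high and 0.47 in the low sows. Without high 1 and high 3, the 2 sows farthest from the CTSC median, it was 0.55, so part of the relation rested on them. Without high 3 and low 5, the 2 farthest from the CTSH median, it was 0.85. Leaving out low 5 alone gave r = 0.89 (permutation adjusted p = 0.0009). Leaving out high 1 alone gave r = 0.73 (permutation adjusted p = 0.0664) and leaving out high 3 alone r = 0.72 (permutation adjusted p = 0.0717), so the pair then missed the threshold. As a share of all genes, 3.62% were at least as close to CTSC as CTSH was, and 1.61% as close to CTSH as CTSC was. Both genes also followed the actin 3' minus 5' difference in the high sows, at an r of 0.73 for CTSC and 0.83 for CTSH. In the low sows these values were 0.027 and 0.62, and over all 12 sows 0.32 and 0.46 (permutation adjusted p = 0.503 for both). For CTSB the r with the actin difference was 0.61 in the high and -0.024 in the low sows. The part of RNA integrity in the relation of CTSC and CTSH was not tested.

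**Figure D4:**
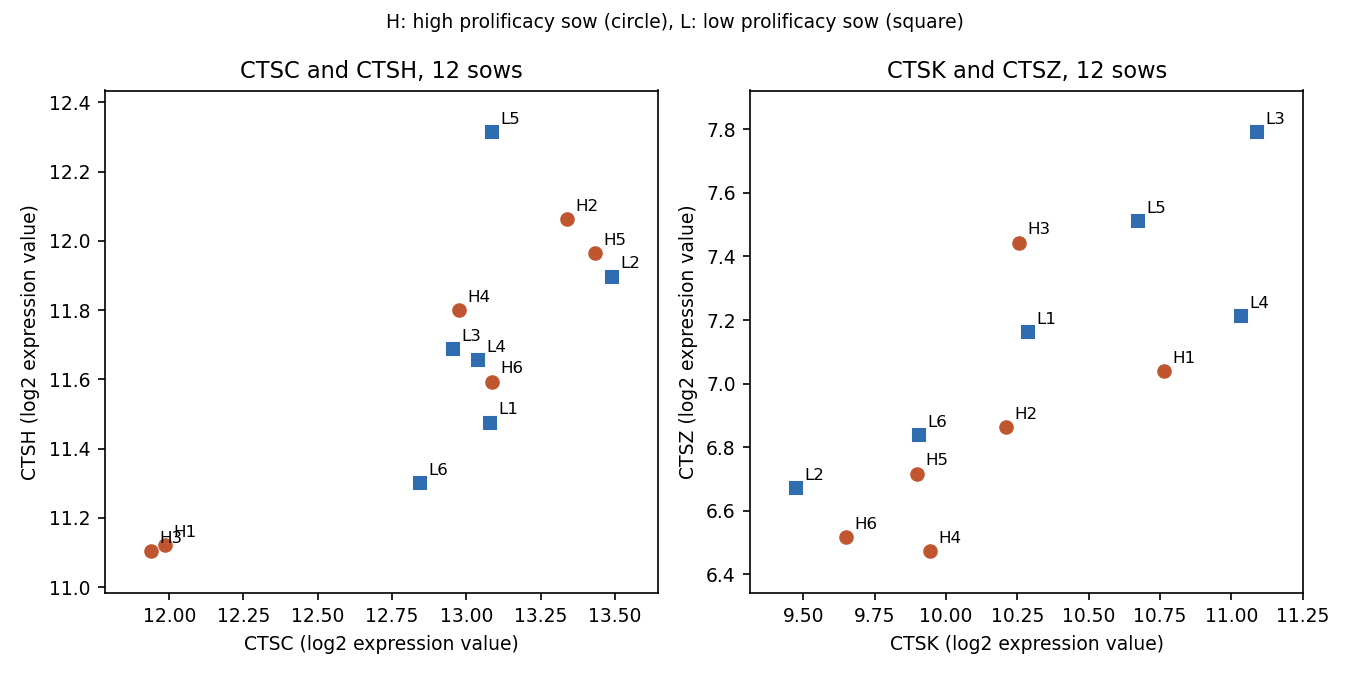
Log2 expression values of CTSC against CTSH (left) and of CTSK against CTSZ (right), 1 point a sow, circles for high and squares for low prolificacy. On the left high 1 and high 3 stand apart at the lower end; on the right the sows form a continuous band, with an r of 0.81 over 12 sows.

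The r of CTSB was 0.68 with each of CTSC and CTSH (permutation adjusted p = 0.0606 for both), 0.60 with CTSD, 0.24 with CTSZ and 0.083 with CTSK. Its rho was 0.59, 0.65, 0.59, 0.10 and -0.12 in the same order (permutation adjusted p from 0.123 to 0.749), and none passed over all 12 sows with the values as deposited. The order differed between groups. In the high sows r was 0.94 with CTSC, 0.84 with CTSH, 0.48 with CTSD, -0.74 with CTSZ and -0.76 with CTSK. In the low sows it was 0.075, 0.57, 0.66, 0.66 and 0.32 in the same order. Without high 3 and low 3, the 2 sows farthest from the CTSB median, CTSB with CTSC had an r of 0.75. Without high 1 and high 3, the 2 farthest from the CTSC median, it was 0.062. No test of a difference between values of r was made. Between CTSC, CTSD and CTSH on one side and CTSK and CTSZ on the other, all 6 values of r were below 0, from -0.35 to -0.082, with permutation adjusted p values from 0.440 to 0.799. None of the 6 passed. Within the low sows r was above 0 for CTSH with CTSZ (0.32), CTSH with CTSK (0.15) and CTSD with CTSZ (0.072).

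The genes most like each member over the 12 sows are given as a description, since they are the highest of 5078 values of r. CTSK was closest to TAF1B (0.86), the binding protein IGFBP5 (0.85) and the transcription factor WT1 (0.85). CTSZ was closest to CSTB (0.88), which encodes the inhibitor cystatin B, then to the secreted phosphoprotein SPP1 (0.87) and to galectin 3, LGALS3 (0.85). CTSC was closest to the sterol carrier SCP2, the malic enzyme ME2 and the acetyl-CoA acetyltransferase ACAT2, each at 0.96. CTSH was closest to HIGD1A (0.94), to PGD of the pentose phosphate pathway (0.94) and to CYSTM1 (0.92). CTSD was closest to the kinase MAPK14 (0.94), the lipid peroxide reductase GPX4 (0.94) and GDE1 (0.93). CTSB was closest to SBDS (0.88), the glyoxalase GLO1 (0.86) and RAB1A (0.84).

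Markers of the cell types of the ovary were set against the same genes, using for each sow the mean of the markers after centring each on its own mean. Of 48 such relations, 6 lists with 8 genes counting CTSV and CTSS, none passed after adjustment (smallest permutation adjusted p = 0.0802 for r and 0.0797 for rho). CTSC and the luteal markers had an r of 0.73 (permutation adjusted p = 0.0802) and a rho of 0.52 (permutation adjusted p = 0.212), and r was 0.69 without the 2 sows farthest from the luteal median. With the endothelial markers CTSC had an r of 0.70 (permutation adjusted p = 0.101) and a rho of 0.60 (permutation adjusted p = 0.188). Without the 2 sows farthest from the endothelial median that r was 0.79. CTSH and the 5 measured follicle markers had an r of -0.77 (permutation adjusted p = 0.0802) and a rho of -0.82 (permutation adjusted p = 0.0797), and r was -0.86 without the 2 farthest sows. With the endothelial markers CTSH had an r of 0.63 (permutation adjusted p = 0.130) and a rho of 0.75 (permutation adjusted p = 0.0809). With the stromal markers r was -0.68 for CTSC and -0.66 for CTSH (permutation adjusted p = 0.129 for both). CTSD and the stromal markers had an r of -0.75 (permutation adjusted p = 0.0802) and a rho of -0.77 (permutation adjusted p = 0.0809), and r was -0.63 without the 2 farthest sows. CTSS and the macrophage markers had an r of 0.75 (permutation adjusted p = 0.0802) and a rho of 0.76 (permutation adjusted p = 0.0809), and r was 0.59 without the 2 farthest sows. CTSK and CTSZ gave 0.39 and 0.24 with the macrophage markers, with permutation adjusted p values of 0.353 and 0.583. For CTSK this r was -0.15 in the high and 0.77 in the low sows, and for CTSZ -0.22 and 0.73. Both genes stood farther from 0 with other lists. CTSK had an r of 0.49 with the stromal and -0.43 with the luteal markers (permutation adjusted p = 0.270 and 0.306). CTSZ had -0.58 with the luteal, 0.52 with the smooth muscle and 0.47 with the stromal markers (permutation adjusted p = 0.198, 0.253 and 0.281).

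Other genes of the lysosome showed no called change either, and their direction depended on the list. With limma and adjustment over all probe sets, 0 of 6 other lysosomal peptidases, 0 of 5 cathepsin inhibitors, 0 of 7 genes of sorting and activation, 0 of 16 genes of the lysosomal membrane and proton pump and 0 of 19 other hydrolases passed in either direction. At an unadjusted p under 0.05 the counts were 1, 0, 0, 3 and 2, all lower in the high group, and 3.38% of all probe sets were so.

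The membrane and proton pump genes were lower in the high group in 16 of 16, with a median difference of -0.16, against 52.4% lower and a median of -0.010 over all probe sets. ATP6V1A, a subunit of the pump that acidifies the lysosome, stood at 7.79 ± 0.40 in the high and 8.35 ± 0.27 in the low sows, a difference of -0.56 (limma adjusted p = 0.771). The calcium channel MCOLN1 differed by -1.17, and the pump subunits ATP6V1E1 and ATP6V1B2 by -0.38 and -0.17. Many of these genes encode subunits of a single pump, and they were measured on the same arrays.

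Of the other hydrolases, 13 of 19 were lower, with a median of -0.085. ASAH1, the acid ceramidase, had the smallest p of all the lysosomal lists, with a difference of -1.12 (limma adjusted p = 0.527). NAAA differed by -0.81, the acid phosphatase ACP5 by -1.22 and PSAP, the precursor of the saposins, by -0.18. ACP5 differed by -0.37 at the least over all settings.

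Inhibitors and sorting genes lay evenly around 0. Of the inhibitors 3 of 5 were lower, with a median of -0.0019. A2M, a broad protease inhibitor of plasma, differed by 0.20, latexin, LXN, by 0.25, the kininogen KNG1 by -0.38 and CSTB by -0.17. Of the sorting genes 4 of 7 were lower, with a median of -0.0019. GNPTG, part of the enzyme that tags proteases for the lysosome, differed by -0.25, the transcription factor TFE3 by 0.15, SCARB2 by 0.18 and the sorting receptor M6PR by 0.13. TFEB and IGF2R did not reach the level of a measured probe set.

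Among the other peptidases 3 of 6 were lower, with a median of 0.031. Beside CTSV, TPP1 differed by 0.21, SCPEP1 by -0.17 and LGMN, the legumain that cuts cathepsin precursors, by 0.077. LGMN differed by -0.31 with the actin difference as a covariate. The signs of KNG1, CSTB, TFE3, SCARB2 and M6PR also turned under at least 1 other setting or omission of a sow.

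**Figure D5:**
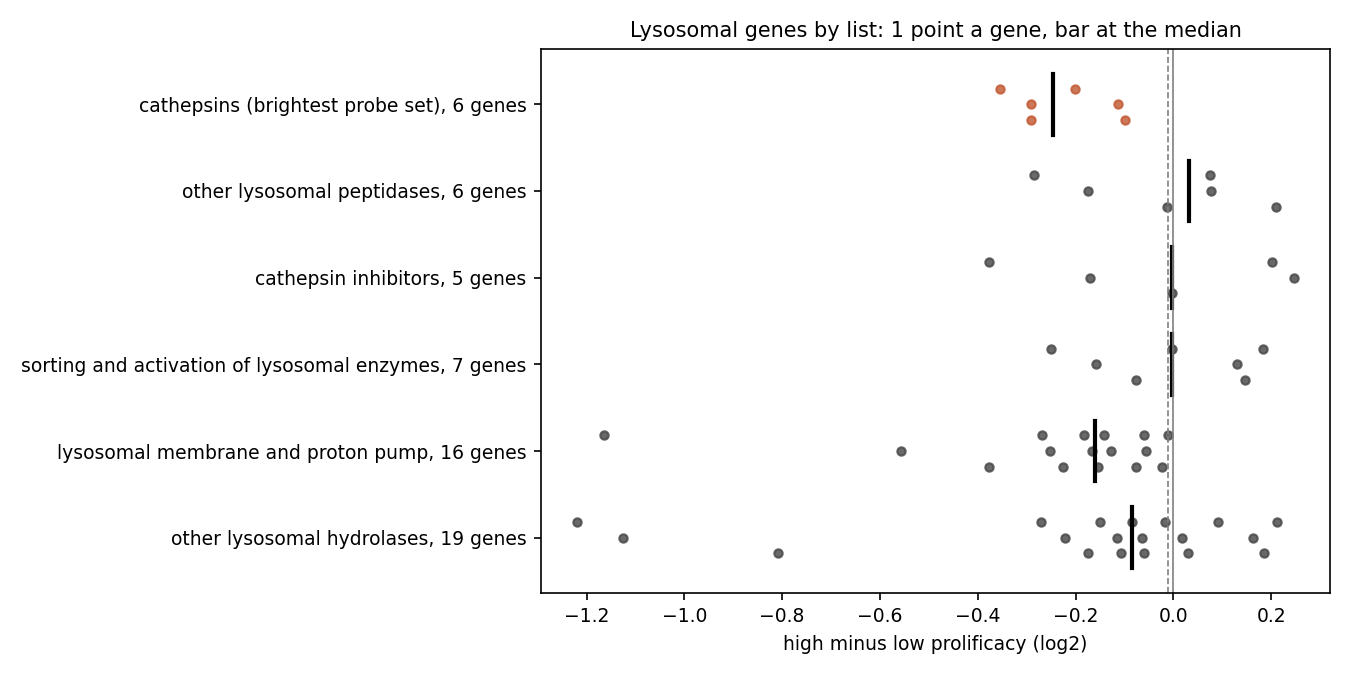
Difference in mean log2 expression, high minus low prolificacy (horizontal axis), 1 point a gene by its brightest probe set, for the 6 cathepsin genes and 5 lists of lysosomal genes; bars mark medians, the solid line 0 and the dashed line the median of all probe sets, -0.010. All 6 cathepsins and all 16 membrane and pump genes lie below 0, and the inhibitors and sorting genes lie on both sides; no gene passed the limma test.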

How the data were processed

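Ovary RNA of 12 sows was measured on Affymetrix porcine arrays. The authors made the deposited log2 values with GCOS and GCRMA, per the submitters' processing notes, whose versions these sources do not give. That they are log2 was taken from GCRMA and from their range, 0.97 to 15.34. Symbols came from the platform annotation (10099 probe sets with 1 symbol, 198 with several, 13826 with none); an update by Entrez ID changed 0. Names of 62 porcine control probe sets were displaced by 21 places and were moved back for the actin difference.

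Probe sets above 4 in at least 6 sows (13390, without 124 controls) were tested in limma 3.58.1 (R 4.3.3; lmFit, then eBayes), no covariate, Benjamini-Hochberg at 0.05, two-sided. The rule named all member probe sets, up to 4 genes of each lysosomal list by smallest p, and the 3 genes most like each member. List genes used their brightest probe set. Correlations used 100000 permutations, or every order for 8 sows, two-sided. Those with CTSV, CTSS, the actin difference, the cell type markers and the albumin settings were added after values were seen. Members and lists were chosen with earlier results of these data known. Steps were tested on simulated data. Alternatives were the filter, normalization, animal number as a block, moderation, array weights, covariates and omitted sows. Protein and promoter sequences were not used here.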

Additional observations from a re-analysis of the deposited data

Results flagged for a closer look

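In 26 groups of 6 sows, the 2 groups of each of 13 cathepsin probe sets, 1 sow stood far from the others of its group. In the brightest CTSC probe set low 2, at 13.49, lay above the next low sow by a gap of 0.628 of the group's range, just past the limit for 6 values. Chance marks about 1 in 20 such groups, so 1 mark in 26 is no more than that. In the other 3 CTSC probe sets low 2 was not marked.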

How the results depend on the processing

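The count of cathepsin probe sets past the limma threshold was 0 under all 23 alternatives. This includes the animal number as a replicate block, which gave 0 cathepsin and 0 other probe sets. Deviations of same-numbered sows from their group means correlated at r from -0.46 to 0.17. The labels name no pairs, and these values cannot show whether any sows were paired, since a pairing need not leave a correlation. Over all probe sets, leaving out a sow gave 0 to 1 calls, the 1 without low 1. The differences of 5 member probe sets turned in sign at least once, among 6 of 207 values. CTSD was 0.018 without high 2 and high 3, CTSK 0.15 without the sows with ALB above 4, and CTSC 0.00024 in its dimmest probe set with ALB as a covariate. Leaving out a sow took the second CTSC probe set from -0.48 to 0.0071, the fourth from -0.54 to 0.046 and CTSH from -0.20 to 0.0052, with no turn in the brightest CTSC (-0.42 to -0.12), the third CTSC (-0.81 to -0.28), CTSB (-0.12 to -0.069), CTSD (-0.28 to -0.11), CTSK (-0.48 to -0.15) or CTSZ (-0.48 to -0.24).

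The count of correlated pairs, 2, was 5 with quantile normalization, 1 without high 2 and high 3, 0 without the sows with ALB above 4, and 1 to 7 with a sow left out: 1 without high 1 or high 3, 4 without low 3 and 7 without high 2. Of the 15 pairs 4 turned in sign. For CTSB and CTSK r was -0.12 by Spearman, -0.26 with quantile normalization, -0.070 with group means removed and -0.31 without the sows with ALB above 4, and -0.31 to 0.26 with a sow left out. For CTSB and CTSZ it was -0.061 with quantile normalization, -0.14 without the ALB sows and -0.18 to 0.48 with a sow left out; for CTSH and CTSZ 0.12 without high 2 and high 3 and -0.37 to 0.079, and for CTSH and CTSK -0.27 to 0.065. The cause was not tested.

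Of the other named genes, CTSS in its brightest probe set, -0.013, was 0.014 with quantile normalization, 0.0045 with median centring, 0.084 without high 2 and high 3, 0.0086 with array weights, 0.24 with the actin covariate, 0.11 with ALB as a covariate, 0.093 without the ALB sows and -0.13 to 0.13 with a sow left out. The second CTSS probe set was 0.19, LGMN -0.31, CSTB 0.040, TFE3 -0.12 and M6PR -0.14 with the actin covariate. KNG1 was 0.16 with array weights and SCARB2 -0.0093 with ALB as a covariate. Without the ALB sows LGMN was -0.065, CSTB 0.020 and SCARB2 -0.21. With a sow left out LGMN ran from -0.052 to 0.22 and CSTB from -0.30 to 0.0072. The settings with ALB were chosen after seeing the data.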
